A study of Rattus norvegicus with 50 samples.

Results

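Heat shock proteins were followed in the lungs of rats that had inhaled titanium dioxide (TiO2) nanoparticles and in air-breathing controls. The set held 10 of the 25885 gene names of the array: Hspa1b, Hspa8, Hspa5, Hspa4, Hsph1, Dnajb1, Hspb1, Hsp90aa1, Hspd1 and Hspe1. They were read by 17 of the 30367 gene probes of the array, every probe that carries one of these names. The set was chosen by the measured difference of Hspa1b between exposed and control rats at the end of exposure, with the other genes added as members of the same families, so all comparisons that use the rats of that day are given as values, with no test. The rats were male F344 animals of 12 weeks, placed in nose-only towers for 6 hours a day, 5 days a week, over 4 weeks. Exposed rats received TiO2 of the P25 grade at 10 mg/m3 and controls received filtered air. Groups of 5 exposed and 5 control rats were killed on the last day of exposure, called D0, and after a recovery of 3 days (D3), 28 days (D28), 90 days (D90) or 180 days (D180), 50 rats in all. RNA came from the accessory lobe, 1 array per rat, and 1 dose and 1 sex limit what the groups stand for.

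Heat shock proteins are chaperones, which bind unfolded or misfolded proteins and help them to fold, move or be degraded. HSP70 proteins hold and release their clients in cycles that J-domain proteins such as Dnajb1 start and that nucleotide exchange factors of the HSP110 family, such as Hsph1 and Hspa4, reset. HSP90 acts late in the folding of kinases and hormone receptors, small heat shock proteins such as Hspb1 keep denatured proteins soluble, Hspd1 and Hspe1 form the chaperonin of mitochondria, and Hspa5, also called BiP, is the HSP70 of the endoplasmic reticulum. Cytosolic members are induced by heat shock factor 1, which binds repeats of the unit GAA in alternating orientation, the heat shock element. Hspa5 answers instead to the unfolded protein response, through the endoplasmic reticulum stress response element.

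The promoters of 8 of the 10 genes were found in a RefSeq table of the rat build GRCr8, and those of Hspa1b and Hsp90aa1 were not in it. They were searched over the 250 bases before the transcription start on both strands, for 3 arrangements of the heat shock unit and for the stress response element of Hspa5, CCAAT and then CCACG with any 9 bases between them. The stretches of 150 bases before the start are shown for the members that differed between groups and for Hspe1, to let the regulatory letters be seen beside the values that follow. Capitals mark the fixed letters of a match.

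Hsph1 (chr12:10427218-10427367, plus strand): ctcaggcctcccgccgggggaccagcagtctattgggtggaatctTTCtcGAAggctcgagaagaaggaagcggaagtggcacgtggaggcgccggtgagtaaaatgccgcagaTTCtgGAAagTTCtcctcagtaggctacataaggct
Hspb1 (chr12:26432302-26432451, minus strand): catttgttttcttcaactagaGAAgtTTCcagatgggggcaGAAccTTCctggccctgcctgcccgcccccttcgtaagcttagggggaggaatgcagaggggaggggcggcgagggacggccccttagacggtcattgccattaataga
Dnajb1 (chr19:41431142-41431291, minus strand): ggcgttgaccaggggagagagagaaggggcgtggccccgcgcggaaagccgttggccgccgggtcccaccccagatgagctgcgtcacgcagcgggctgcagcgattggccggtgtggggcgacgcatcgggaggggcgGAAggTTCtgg
Hspa8 (chr8:50080364-50080513, plus strand): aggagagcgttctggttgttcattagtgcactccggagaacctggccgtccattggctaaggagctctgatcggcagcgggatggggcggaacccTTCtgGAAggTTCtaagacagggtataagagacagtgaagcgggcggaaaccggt
Hspe1 (chr9:64084177-64084326, plus strand): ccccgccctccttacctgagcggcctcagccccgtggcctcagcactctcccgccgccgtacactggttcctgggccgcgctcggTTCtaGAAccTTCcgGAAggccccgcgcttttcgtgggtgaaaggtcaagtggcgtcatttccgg
Hspa5 (chr3:38452866-38453015, plus strand): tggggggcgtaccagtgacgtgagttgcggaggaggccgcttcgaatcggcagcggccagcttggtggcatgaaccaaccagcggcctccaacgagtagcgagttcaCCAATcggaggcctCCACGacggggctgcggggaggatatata

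The pair GAANNTTC, which reads the same on both strands, was present in 6 of the 8 member promoters and in 7.23% of the 33469 promoters of the table. The pair TTCNNGAA, likewise the same on both strands, was present in 4 of the 8 and in 7.48% of all. A run of 3 units, GAA, TTC and GAA with any 2 bases between units, or TTC, GAA and TTC on the other strand, was present in Hspa8, Hspd1, Hspe1 and Hsph1 and in 0.663% of all promoters. Each such run contains both pairs, so these matches overlap. In Hsph1 the run lay 36 to 24 bases before the start, in Hspa8 213 to 201 and again 55 to 43, and in Hspe1 65 to 48, where 2 overlapping runs make 4 units. Hspd1 and Hspe1 are transcribed away from each other from starts close together, and the element found in the search window of Hspd1 is that of Hspe1. Hspb1 and Dnajb1 held GAANNTTC without the third unit, in Dnajb1 only 11 to 4 bases before the start. Hspa5 was the only member with the stress response element, 43 to 25 bases before its start, a motif in 0.0657% of all promoters. Hspa4 held none of these letters in its window. A match is a description of the letters and not of binding.

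Values are quantile-normalized log2 signals, on which a step of 1 is a doubling. Over the 50 arrays the median processed signal lay between 198 and 473, and 68.7% to 84.5% of gene spots were well above background. All 10 lung markers, surfactant genes and Ager among them, were well above background on every array. Arrays of D0, D3 and D28 shared slides 1 to 4 and those of D90 and D180 shared slides 5 to 7, except exposed rat 1 of D3, which was on slide 7. A change between D28 and D90 can therefore not be told apart from a change of slides. In whole lobe RNA, fewer cells of a type and less RNA per cell cannot be told apart. The labels number the rats separately. The p-values here rest on the spread between rats within groups, taken for each probe over all 10 groups. The main fit has no slide term, so that spread also carries differences between slides.

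Of the 17 probes, 16 were well above background on all 50 arrays and none was saturated. The exception was the second probe of Hspa1b, A_64_P096658 (chr20:3959493-3959552 in build rn4, first 30 bases atcctagggtaaagaagtcttcagcaatag), which was well above background on 1 of 50 arrays and lay between 2.44 and 5.13 in all rats. Hspa1b values below are those of A_44_P1042876 (chr20:3957864-3957923 in rn4, first 30 bases ctcgtgggttttttatatattcaaattaag), which was printed on 10 spots with a median SD of 0.0709 log2 units between spots. The probe of Hspa1b may also bind its near-identical neighbour Hspa1a, which has no probe name of its own on this array. Probes of Hspa8 and Hsp90aa1 may likewise bind close family copies, so their values carry that uncertainty.

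Hspa1b, the stress-inducible HSP70, had its highest group mean in the control rats of D0. Its levels in the 5 control rats of D0 were 13.30, 15.33, 13.33, 13.70 and 13.15. In the exposed rats of that day they were 11.26, 10.98, 10.77, 10.87 and 10.92. Every control rat lay above every exposed rat, and the means of 13.76 ± 0.90 and 10.96 ± 0.19 (SD, n = 5 each) gave a difference of -2.80, 6.98-fold lower in exposed rats. Rat 2 stood well above the other controls, and without it the difference was -2.41. In each of the 4 slides that held both groups the exposed mean was lower, by -4.57 to -1.96 log2 units. The set was chosen by this difference, so these values describe it and do not test it.

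**Figure D1:**
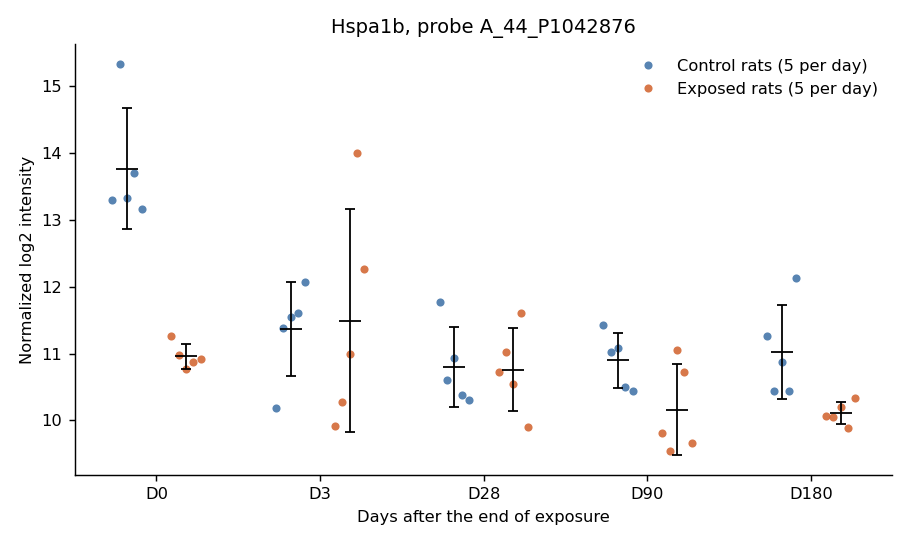
Hspa1b level (log2 normalized signal, probe A_44_P1042876) in each of the 50 rats by day and group, with group means and SD. The D0 controls lie between 13.15 and 15.33, above all other rats except exposed rat 4 of D3 at 14.00.

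At D3 the control rats were lower and the exposed rats were not. Control rats of D3 read 10.19, 11.39, 11.55, 11.61 and 12.07, all below the lowest D0 control. Their mean of 11.36 ± 0.70 was 5.28-fold below that of the D0 controls, a difference of -2.40. Exposed rats went from 10.96 ± 0.19 at D0 to 11.49 ± 1.66 at D3, a difference of 0.53, with single rats at 9.92, 10.28, 10.99, 14.00 and 12.27. Rats 4 and 5 made the spread of that group by far the widest of the 10. The D0 controls stood apart from the later control groups, and the exposed mean of D0 was close to the control means of D28, D90 and D180, which were 10.80 ± 0.60, 10.90 ± 0.41 and 11.03 ± 0.70.

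From high to low, the 10 group means of Hspa1b ran from control D0 (13.76) through exposed D3 (11.49), control D3 (11.36), control D180 (11.03), exposed D0 (10.96), control D90 (10.90), control D28 (10.80), exposed D28 (10.76) and exposed D90 (10.16) to exposed D180 (10.11). Only the step below the D0 controls was larger than the SD of both neighbours, and even there rat 4 of the exposed D3 group lay within the range of the D0 controls. All other neighbours in this order differed by less than the larger of their SDs.

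Dnajb1, Hspb1 and Hsph1 were likewise highest in the D0 controls. Dnajb1, the J-domain partner of HSP70, read 12.05, 12.74, 12.33, 12.44 and 12.42 in D0 controls against 11.43, 11.40, 11.47, 11.46 and 11.39 in exposed rats. The groups did not overlap, and the exposed mean was 1.95-fold lower (-0.97). Control rats then read 11.66 ± 0.21 at D3, -0.74 from D0, while exposed rats moved by 0.31 to 11.75 ± 0.41.

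Hspb1, the small heat shock protein HSP27, read 15.20, 15.77, 15.43, 15.46 and 15.66 in D0 controls and 14.64, 14.66, 14.49, 14.49 and 14.45 in exposed rats. These ranges were again apart, with exposed rats 1.94-fold lower (-0.96). The controls of D3 were lower than those of D0 by -0.77, at 14.74 ± 0.14, and the exposed rats moved by 0.09. Hsph1, an HSP110 exchange factor, read 8.66, 9.40, 9.24, 8.97 and 9.49 in D0 controls and 8.59, 8.06, 8.51, 8.37 and 8.46 in exposed rats, 1.69-fold lower (-0.76). The lowest control rat was only just above the highest exposed rat. Controls were lower at D3 than at D0 by -0.70, and exposed rats higher by 0.25.

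Hspa8 is the constitutive HSP70 of the cytosol and has 4 probes. On A_64_P096381 the D0 controls read 14.03, 14.60, 14.37, 14.26 and 14.42 and the exposed rats 13.65, 13.55, 13.76, 13.66 and 13.62, a difference of -0.69 without overlap. On A_64_P014723 controls read 12.98, 13.50, 13.33, 13.37 and 13.31 and exposed rats 12.64, 12.59, 12.71, 12.65 and 12.67, a difference of -0.64, again without overlap. The other Hspa8 probes differed by -0.42 and -0.36. The 3 Hsp90aa1 probes, for the inducible HSP90, were lower by -0.49 to -0.41 in exposed rats. Differences were smaller in the exchange factor Hspa4 (-0.17), in the mitochondrial Hspd1 (-0.10) and in both Hspe1 probes (-0.10 and -0.08), and Hspa5 of the endoplasmic reticulum was higher by 0.12.

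At D0, 7 of 17 probes were lower in all exposed rats than in any control rat, against 3.75% of all 29549 probes tested, and 6 of 17 were lower by 1.5-fold or more, against 4.14%. From D0 to D3, 7 of 17 probes were lower in all D3 controls than in any D0 control, against 2.83% of all probes, and 4 of 17 were lower by 1.5-fold or more, against 3.37%. In exposed rats 0 of 17 probes separated D3 from D0 in this way in either direction, against 1.67% lower and 1.27% higher. These shares use the D0 rats, whose contrast is the one from which Hspa1b was picked, and are description. Smooth muscle markers moved beside them. In exposed rats at D0, 7 of 7 were lower, by -0.89 to -0.46, next to a median of -0.01 over all probes. Their summed level was 14.3 to 14.6 in controls and 13.5 to 14.0 in exposed rats. The summed level of neutrophil markers differed the other way, at 15.00 to 15.57 in controls and 16.56 to 17.07 in exposed rats. Of the 8 neutrophil markers, 3 were higher by 1.5-fold or more, Lcn2 by 3.22, a count that has no share over all probes beside it. The sum adds linear values, and S100a9 carried much of it, at 14.62 ± 0.21 in controls and 16.31 ± 0.22 in exposed rats. The part of both lists in the result was not tested.

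**Figure D2:**
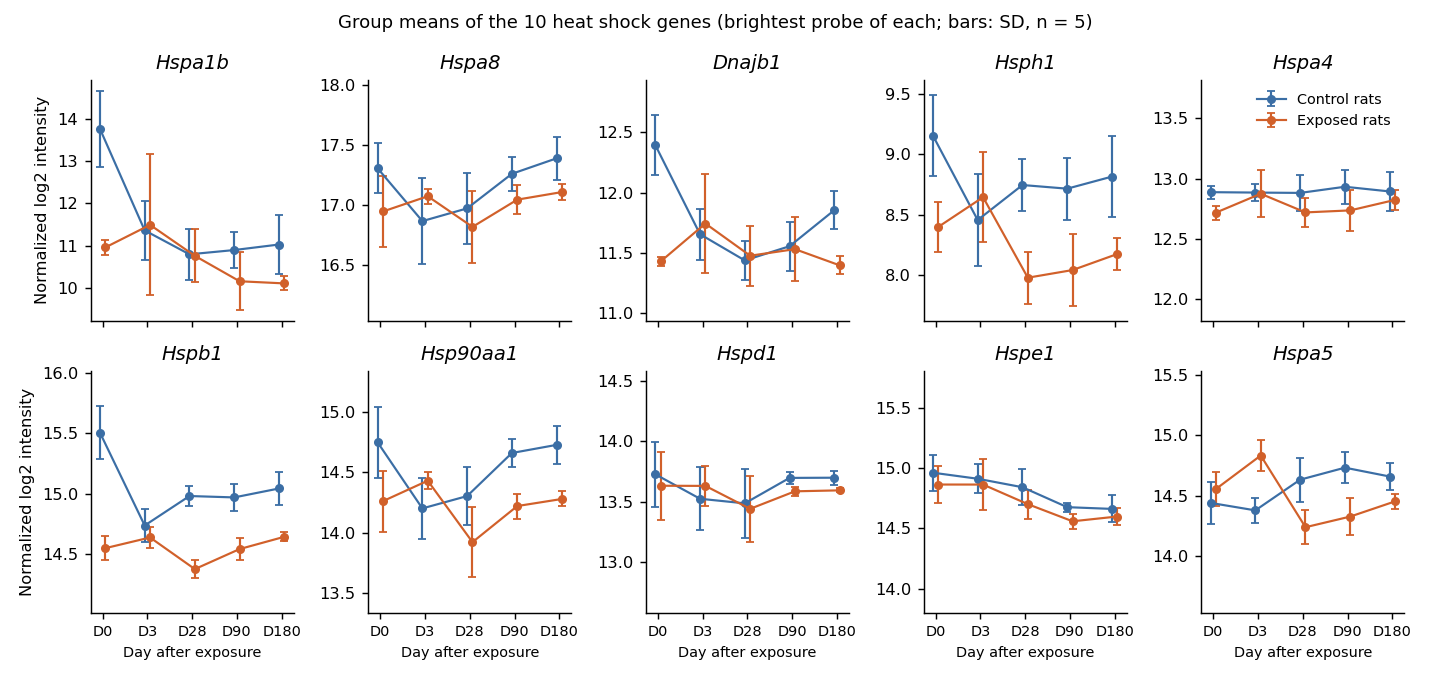
Group mean and SD (n = 5 rats) of the log2 normalized signal of each member, by its brightest probe, across the 5 days, for control and exposed rats. In Hspa1b, Dnajb1, Hspb1 and Hsph1 the control line starts high at D0 and meets the exposed line by D3, and Hspa5 shows the exposed mean above the control mean at D3 and below it from D28 on.

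At D3 the cytosolic members did not separate the groups, and the single member that stood apart was Hspa5. Tests from here on used limma with Benjamini-Hochberg adjustment over all 29549 probes, and a probe was called at an adjusted p under 0.05 with a change of 1.5-fold or more. At D3, 0 of 17 member probes were called, against 3.44% of all probes, and 1 of 17 had an unadjusted p under 0.05, against 21.5% of all probes. That probe was Hspa5: controls read 14.22, 14.33, 14.41, 14.47 and 14.46, and exposed rats read 14.88, 14.70, 14.93, 14.69 and 14.97. All exposed rats lay above all controls, the only member probe to do so (1 of 17, against 3.19% of all probes), and the difference of 0.45 (SE 0.089, 1.37-fold, adjusted p = 0.000299) stayed under the fold limit. In 4 of 4 slides the exposed mean was higher, by 0.29 to 0.57.

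Hspa1b differed by 0.13 at D3, with a 95% interval from -0.84 to 1.1. Dnajb1 (0.09), Hspb1 (-0.10) and Hsph1 (0.19) were likewise within the spread. Of 8 neutrophil markers 3 were higher in exposed rats at D3, Lcn2 by 2.45, S100a9 by 1.68 and S100a8 by 1.56 log2 units. The summed level of the list was 14.8 to 15.7 in controls and 16.5 to 17.0 in exposed rats. Their part in the Hspa5 difference was not tested.

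At D28 the exposed rats were the lower ones again, now with Hsph1 and Hspb1 in front and Hspa1b not among them. Hsph1 read 9.04, 8.86, 8.76, 8.59 and 8.48 in controls and 7.98, 7.92, 7.86, 8.34 and 7.79 in exposed rats. Every exposed rat was below every control, and Hsph1 was 1.70-fold lower in exposed rats (-0.77, SE 0.18, adjusted p = 0.00696). It was called when any 1 of the 10 rats was left out, with adjusted p from 0.00474 to 0.0344, and was lower in exposed rats in 3 of 3 slides, by -0.81 to -0.42.

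Hspb1 read 15.05, 15.07, 14.91, 14.89 and 14.97 in controls of D28 and 14.35, 14.47, 14.28, 14.41 and 14.36 in exposed rats. The ranges were well apart, and Hspb1 was 1.52-fold lower in exposed rats (-0.61, SE 0.077, adjusted p = 5.74e-07). Its change sat at the fold limit, and without control rat 2 or exposed rat 3 it was -0.58, under that limit, with the adjusted p still far below 0.05. The 2 calls among 17 probes compare with 1.31% of all probes called, 0.47% in the lower direction. The same 2 probes were the only members whose groups did not overlap, against 1.64% of all probes.

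The HSP90 probes were lower at D28 too, with less certainty. Hsp90aa1 probe A_44_P299870 read 15.25, 14.73, 14.10, 14.45 and 13.80 in controls and 14.17, 13.39, 14.03, 14.01 and 13.19 in exposed rats. The groups overlapped, and the difference of -0.71 (1.64-fold) had an adjusted p of 0.151. In 3 of 3 slides with both groups the exposed mean was lower, but only by -0.51 to -0.10. Slide 2 held a D28 control and no exposed rat of that day, so the -0.71 also carries a difference between slides. A_64_P023633 differed by -0.41 (adjusted p = 0.0331) and A_64_P119852 by -0.38 (adjusted p = 0.0918), both under the fold limit.

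Hspa5, higher in exposed rats at D3, was lower in them at D28. Controls read 14.69, 14.78, 14.82, 14.47 and 14.41, and exposed rats read 14.24, 14.25, 14.18, 14.45 and 14.06. The groups overlapped by 1 exposed rat, and the difference was -0.39 (SE 0.089, 1.31-fold, adjusted p = 0.0051), under the fold limit. Hspa1b, in contrast, differed by -0.04 (95% interval -1.01 to 0.93), and it was higher in exposed rats in all of the 3 slides with both groups, by 0.15 to 0.67. Dnajb1 was at 11.44 ± 0.16 in controls and 11.48 ± 0.25 in exposed rats, and the 4 Hspa8 probes differed by -0.34 to -0.15. With slide as a block the Hspa1b difference was 0.18.

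Markers of other cell types differed beside the D28 calls. Cardiac muscle markers summed to 15.34 to 15.81 in controls and 14.89 to 15.30 in exposed rats, with 0 of 9 called. Neutrophil markers summed to 14.92 to 15.64 in controls and 15.65 to 16.17 in exposed rats, and 1 of 8 was called, S100a9, at 0.88 (adjusted p = 0.000592). The part of both lists in the Hsph1 and Hspb1 differences was not tested. At this day 1 exposed rat, rat 2, carried skeletal muscle RNA, with a summed marker level of 15.6 against at most 10.3 in the others, and in that rat Hsph1 was 7.92, the median of its group, and Hspb1 was 14.47, the highest of its group.

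**Figure D3:**
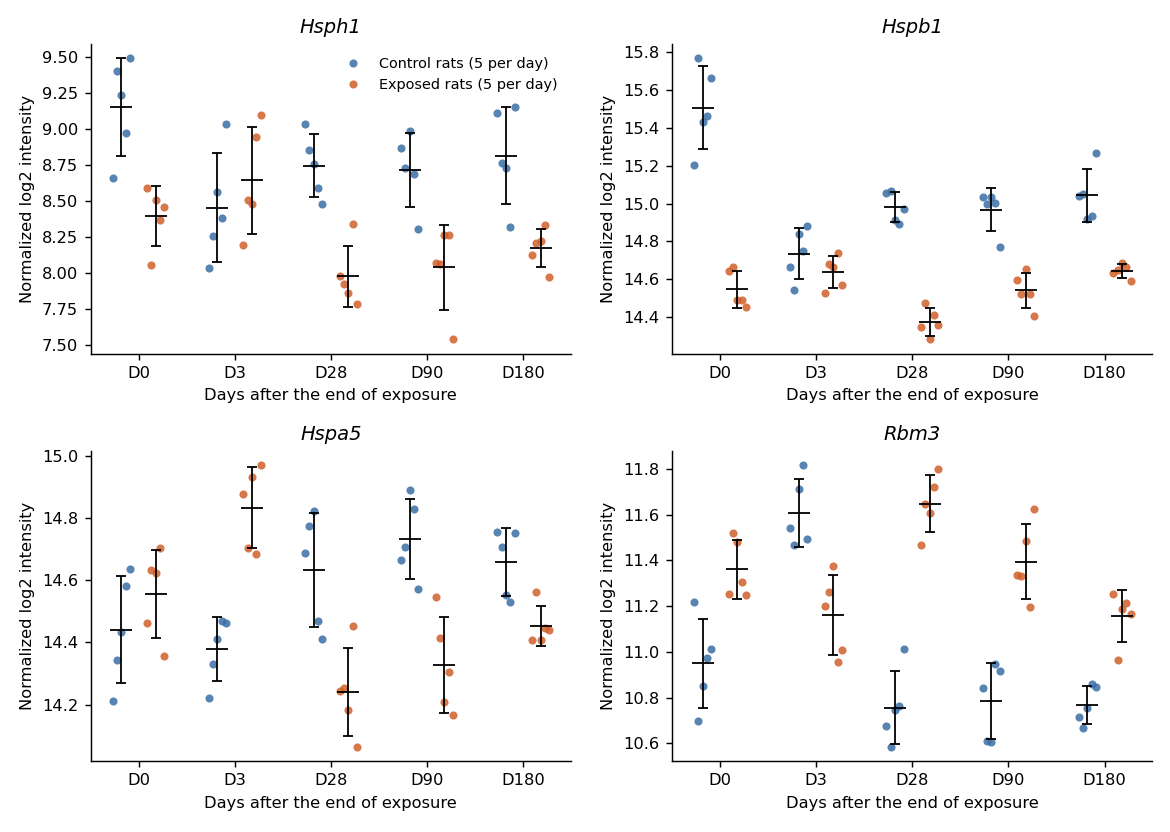
Log2 normalized signal of Hsph1, Hspb1, Hspa5 and the cold-inducible Rbm3 in each of the 50 rats, by day and group. At D28 exposed rats lie below all controls for Hsph1 (at most 8.34 against at least 8.48) and Hspb1 (at most 14.47 against at least 14.89), and Rbm3 lies on the opposite side.

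At D90 the same members were lower in exposed rats, and 0 of 17 probes were called, against 0.372% of all probes, 0.135% in the lower direction. In limma 9 of 17 probes had an unadjusted p under 0.05, all lower in exposed rats, where 6.85% of all probes had such a p. Hsph1 read 8.87, 8.73, 8.99, 8.69 and 8.30 in controls and 8.07, 8.07, 8.26, 8.26 and 7.54 in exposed rats. The highest exposed rat was just below the lowest control, the difference was -0.67 (1.60-fold), and its adjusted p of 0.0514 lay next to the threshold. With slide as a block it was called, at the same -0.67 with an adjusted p of 0.00665.

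Hspb1 read 15.04, 15.00, 15.03, 15.00 and 14.77 in D90 controls and 14.60, 14.52, 14.65, 14.52 and 14.41 in exposed rats, -0.43 (1.35-fold, adjusted p = 0.000746). Hspa5 read 14.66, 14.71, 14.89, 14.83 and 14.57 against 14.55, 14.41, 14.21, 14.30 and 14.17, -0.41 (1.32-fold, adjusted p = 0.00938). Both passed the adjusted p and missed the fold limit. With Hsp90aa1 probe A_64_P119852 (-0.44, adjusted p = 0.104), these made 4 of 17 probes with all exposed rats below all controls, against 1.59% of all probes. Hspa1b differed by -0.74 with overlapping groups and a 95% interval from -1.71 to 0.23, and Dnajb1 by -0.02. Without control rat 5 of D90, 1 member probe was called. Macrophage markers summed to 14.40 to 14.49 in these controls and 14.52 to 14.69 in exposed rats, with 0 of 7 called, and their part in the differences was not tested.

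At D180 the called member was Hspa8. Its probe A_64_P096381 read 14.19, 13.81, 14.17, 13.85 and 14.22 in controls and 13.63, 12.86, 13.44, 13.50 and 13.69 in exposed rats. The groups did not overlap and it was 1.54-fold lower in exposed rats (-0.63, SE 0.14, adjusted p = 0.0181). This was the only call among 17 probes, against 0.338% of all probes called and 0.0981% in the lower direction. The call was lost without control rat 1, 3 or 5, at -0.59, -0.59 and -0.58, and without exposed rat 2, the lowest, at -0.48 (adjusted p = 0.14). Without control rat 4, 2 probes were called.

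The other Hspa8 probes pointed the same way. A_64_P061286 read 16.11, 15.81, 16.04, 15.83 and 16.07 against 15.47, 15.49, 15.50, 15.56 and 15.61, -0.45 (adjusted p = 0.0207) and under the fold limit. A_64_P014723 differed by -0.48 (adjusted p = 0.0567) and A_64_P023392 by -0.28 (adjusted p = 0.657). Where 4 probes of 1 gene give a change between -0.63 and -0.28, the brightest, A_64_P023392, gave the least.

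Hspa1b at D180 read 11.26, 10.44, 10.87, 10.44 and 12.13 in controls and 10.07, 10.05, 10.21, 9.89 and 10.33 in exposed rats. No exposed rat reached the lowest control, but the difference of -0.92 (1.89-fold, 95% interval -1.89 to 0.05) had an adjusted p of 0.69. That interval rests on the spread of the probe over all 10 groups. The SD was 0.70 in these controls and 0.17 in these exposed rats, and 1.66 in the exposed rats of D3. Dnajb1 read 11.93, 11.66, 12.00, 11.72 and 11.98 against 11.39, 11.36, 11.52, 11.32 and 11.40, -0.46 (adjusted p = 0.143), also without overlap. Hspb1 read 15.04, 15.05, 14.92, 14.94 and 15.27 against 14.63, 14.65, 14.68, 14.66 and 14.59, -0.40 (1.32-fold, adjusted p = 0.0022), under the fold limit.

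Hsph1 was lower by -0.64 at D180 (adjusted p = 0.0766), at 8.82 ± 0.34 in controls and 8.17 ± 0.13 in exposed rats, and with slide as a block by -0.71 (adjusted p = 0.00631), which was called. In all, 8 of 17 probes had all exposed rats below all controls at D180, against 1.42% of all probes. They were those of Hspa1b, Dnajb1, Hspb1 and Hspd1, 1 of Hsp90aa1 and 3 of Hspa8. Hspa5 read 14.76, 14.71, 14.55, 14.53 and 14.75 in controls and 14.41, 14.56, 14.41, 14.45 and 14.44 in exposed rats, overlapping groups that differed by -0.21 (adjusted p = 0.489). The Hspd1 gap was small, 13.70 ± 0.06 against 13.59 ± 0.02, a difference of -0.10. Skeletal muscle markers were raised in exposed rat 4 alone among these, at a summed 14.2. In that rat Hspb1 was 14.66, and Hspa1b was 9.89, the lowest of its group. Ciliated cell markers summed to 13.47 to 13.58 in controls and 13.43 to 13.46 in exposed rats, with 0 of 6 called. Glucocorticoid-responsive genes summed to 16.03 to 16.27 in controls and 15.80 to 15.95 in exposed rats. Neutrophil markers overlapped, at 14.68 to 15.23 in controls and 15.22 to 15.56 in exposed rats. The part of these lists was not tested.

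Within the arms, no member probe was called over time in control rats from D3 on. The step from D0 to D3, in which Hspa1b of the controls moved by -2.40, was not tested. Among controls 0 of 17 probes were called between D3 and D28 (0.66% of all probes were), between D28 and D90 (4.82%) or between D90 and D180 (0.0203%), by limma, and 2, 3 and 2 of 17 had an unadjusted p under 0.05, all higher on the later day, where 8.23%, 31.7% and 4.8% of all probes had such a p. Hspb1 was higher in all D28 controls than in any D3 control, by 0.24 (adjusted p = 0.124), the only member probe of 17 to be so, against 1.11% of all probes.

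In exposed rats 2 of 17 probes were called between D3 and D28, against 1.64% of all probes and 0.904% in the lower direction. Hsph1 fell by 0.67 on the log2 scale (adjusted p = 0.0185), from 8.64 ± 0.37 to 7.98 ± 0.21, and Hspa5 fell by 0.59 (SE 0.089, adjusted p = 1.38e-05), from 14.83 ± 0.13 to 14.24 ± 0.14. The ranges of Hspa5 did not overlap and those of Hsph1 did. With Hspb1 and Hsp90aa1 probe A_64_P119852, 3 of 17 probes were lower in all D28 exposed rats than in any of D3, against 1.91% of all probes. Under the fold limit, Hspb1 moved by -0.26 (adjusted p = 0.0363) and Hsp90aa1 by -0.45 (adjusted p = 0.0138) and -0.51 (adjusted p = 0.0113). Between D28 and D90 and between D90 and D180, 0 of 17 were called in exposed rats, against 2.47% and 0.00338% of all probes, with 2 and 0 unadjusted p values under 0.05, which 24.2% and 3.02% of all probes had.

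These D3 to D28 calls rested on few rats. Hsph1 was not called without exposed rat 4 or 5 of D3 or exposed rat 5 of D28, at -0.59, -0.55 and -0.62. Hspa5 stayed at a low adjusted p but went under the fold limit, at -0.58 to -0.55, without exposed rat 1, 3 or 5 of D3 or exposed rat 3 or 5 of D28.

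The test of the difference between exposure effects gave the same 2 genes. From D3 to D28 the exposed-minus-control difference moved by -0.96 for Hsph1 (SE 0.25, adjusted p = 0.0313) and by -0.85 for Hspa5 (SE 0.13, adjusted p = 1.71e-05), 2 of 17 probes called against 1.2% of all probes and 0.64% in the lower direction. Hspa5 turned from 0.45 to -0.39, and held its call without any 1 of the 20 rats. Hsph1 went from 0.19 to -0.77, and lost its call without control rat 1, 2 or 4 or exposed rat 4 or 5 of D3, or without control rat 1 or 2 or exposed rat 2, 3 or 5 of D28, with adjusted p up to 0.0841. Hspb1 moved by -0.51 (adjusted p = 0.00436), under the fold limit. No probe of the 17 was called for the change of the effect from D28 to D90, where 0% of all probes were and 0 of 17 had an unadjusted p under 0.05 (2.92% of all probes), or from D90 to D180, where 0.0102% were and 1 of 17 had one (2.84% of all probes).

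Members of the mitochondria and the second exchange factor differed little between the groups. Over D3 to D180 the exposed-minus-control differences of Hspd1 lay between -0.11 and 0.11, those of the 2 Hspe1 probes between -0.14 and 0.06, and those of Hspa4 between -0.20 and -0.01. None was called. At D3, the difference of Hspd1 was 0.11 with a 95% interval from -0.15 to 0.37.

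Probes of 1 gene did not always move together. Over the 50 arrays, which share slides and processing, the Hspe1 probes had a Pearson correlation of -0.43, and Hsp90aa1 probes A_44_P299870 and A_64_P119852 one of 0.17. In contrast, Hspa8 probes A_64_P014723 and A_64_P096381 had one of 0.91. Hsph1 and Hsp90aa1 probe A_64_P023633 tracked each other at 0.94 over all arrays, and at 0.85 once group means were taken off.

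Among 25207 other genes, the patterns most like Hspa1b over the 50 arrays were those of an unnamed probe, A_64_P130628 (r = 0.89), Gnat1 (0.88), Dnajb1 (0.88), Dnaja1 (0.88), Dll1 (0.85), Mkks (0.85), Slc38a2 (0.84) and Kcnj14 (0.83). With group means taken off, they were A_64_P130628 (0.83), Dnajb1 (0.81), Dnaja1 (0.79), Dll1 (0.77), Dusp8 (0.76), Gnat1 (0.75), Cacybp (0.75) and Slc38a2 (0.74). Dnajb1 and Dnaja1, a further J-domain partner of HSP70, were among the 6 that stood on both lists, with A_64_P130628, Gnat1, Dll1 and Slc38a2. Without the 2 rats farthest from the median of Hspa1b, control rat 2 of D0 and exposed rat 4 of D3, its correlation with Dnajb1 was 0.84, and over the 40 rats of D3 to D180 it was 0.77. Hsph1 correlated with Hspa1b at 0.72 (0.65 over D3 to D180), Hspb1 at 0.67 (0.29) and Hspa5 at 0.08 (0.32). The arrays share slides, and these values are descriptions.

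**Figure D4:**
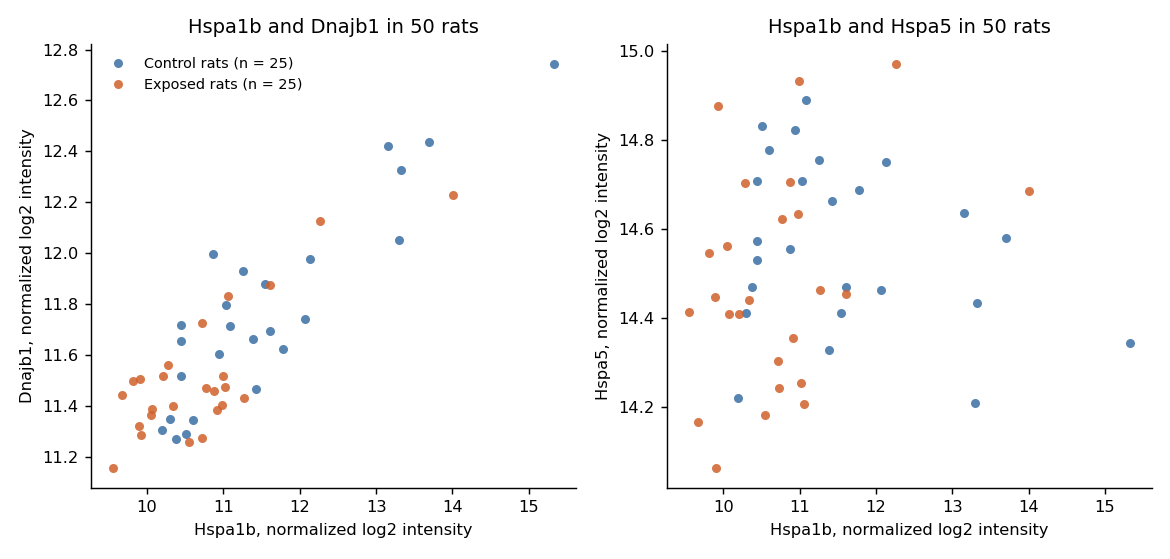
Log2 normalized signal of Hspa1b against Dnajb1 and against Hspa5 in the 50 rats, coloured by group. Rats high in Hspa1b are high in Dnajb1 (r = 0.88), within groups too (0.81), and for Hspa5 r is 0.08 over all rats and 0.32 over D3 to D180.

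Other chaperone genes were read by list. In lists of the remaining HSP70, HSP110 and HSP90 genes (12 measured), J-domain co-chaperones (17), small heat shock proteins (9), co-factors (22), the cytosolic chaperonin CCT (8), heat shock factors (6), other targets of heat shock factor 1 (27), endoplasmic reticulum chaperones (24) and mitochondrial chaperones (12), 0 genes were called between exposed and control rats at D3, D28, D90 or D180. Of all probes, 3.44%, 1.31%, 0.372% and 0.338% were called on those days in turn. At D90 and D180 so few probes were called that a count of 0 in these lists says little. The members' own median difference was 0.12 at D3. It was -0.16, -0.31 and -0.34 on the later days in turn, next to medians over all probes between -0.01 and 0.00. At D0 it was -0.42, and the targets of heat shock factor 1 had a median of -0.25. Of those targets, 3 of 27 were lower by 1.5-fold or more, against 4.14% of all probes.

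Hsf1 itself differed by -0.20 at D0 and by -0.14 to 0.02 later. At D180 its exposed rats all lay below its controls (at most 11.38 against at least 11.47), as did 1.42% of all probes. Bag3, a co-chaperone of HSP70, differed by -0.40 at D0, and Hsp90ab1, the constitutive HSP90, by -0.57 at D28 (adjusted p = 0.404). Hsp90ab1 levels of D28 split by slide, at 16.54 to 17.03 on slides 2 and 3 and 15.27 to 15.84 on slides 1 and 4. Slide 2 held a control and no exposed rat of D28, so the -0.57 also carries a difference between slides. Cryab, a small heat shock protein, was at -0.53 at D3 (adjusted p = 4.36e-07), under the fold limit. Hspa9, the mitochondrial HSP70, was called in no comparison of exposed with control rats.

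The endoplasmic reticulum list had a median difference above 0 at D3, like Hspa5. It was 0.20, and the change of the exposure effect from D3 to D28 had a median of -0.23. Of 24 genes, 1 was called for that change, for which 1.2% of all probes were called. It was Creld2, a secreted unfolded protein response gene, at -0.59 (adjusted p = 5.47e-04). Hsp90b1, the HSP90 of that compartment, was at -0.48 (adjusted p = 0.0236), under the fold limit.

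Rbm3, an RNA-binding protein induced by cold, was higher in exposed rats at D28, when Hsph1 and Hspb1 were lower in them. Its group means were 10.76 ± 0.16 in controls and 11.65 ± 0.12 in exposed rats, 0.89 higher (adjusted p = 1.17e-08), and at D90 it was higher by 0.61 (adjusted p = 8.56e-05). At D180 the difference was 0.39 (adjusted p = 0.0343), under the fold limit. At D3 it was at -0.45 (adjusted p = 0.00105), under the fold limit. Its D0 means, not tested, were 10.95 ± 0.19 in controls and 11.36 ± 0.13 in exposed rats, with ranges just apart (at most 11.22 against at least 11.25). Rbm3 also moved in controls, falling by 0.85 on the log2 scale from D3 to D28 (adjusted p = 3.58e-08), which no member probe did. Cirbp, the other cold-inducible gene measured, differed by -0.43 at D0 and by -0.08 to 0.15 later.

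Clock genes, which follow the time of day, differed between the groups at every day tested. Of 12 measured, 2 were higher and 6 lower in exposed rats at D3, and 6 were higher and 4 lower at D28. At D90 6 were higher and 3 lower, and at D180 5 were higher and 3 lower. Of all probes, 3.44%, 1.31%, 0.372% and 0.338% were called in either direction on those days in turn. Dbp, a clock output gene, was at 15.31 ± 0.17 in controls and 13.36 ± 0.22 in exposed rats at D0, a difference of -1.95. Its difference was -2.49 at D3, and 3.27, 3.36 and 2.97 at D28, D90 and D180. Its control mean was 15.31 at D0 and D3 and 10.80 at D28. Arntl, the core activator of the clock, moved the other way, at 1.26 at D0 and then at 1.67, -1.47, -1.58 and -1.09. Their part in the heat shock differences was not tested.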

How the data were processed

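Total RNA (100 ng per rat) was labelled with Cy3 and hybridised by the authors to Agilent rat arrays of 62976 spots. The deposited values used here are intensity values, the processed signal that Agilent Feature Extraction 11.0.1.1, per the file headers and the submitters' processing notes, wrote after background subtraction, and probe positions are those of build rn4 in the same files. The series matrix of the authors, log2 values, served as an alternative. Spots of a probe were averaged after outlier flags were left out, 30367 probes were quantile-normalized on the log2 scale, and probes above the 95th percentile of 308 negative controls on at least 5 of 50 arrays were kept (29549, all 17 of the members). A mean was fitted for each of the 10 groups (limma 3.58.1, R 4.3.3) with Benjamini-Hochberg adjustment over all kept probes. Per-rat values were named in full for member probes with a group difference of 1.5-fold or more, and Hspa5 was added after its values were seen. From the other lists, up to 3 called genes per comparison and a fixed set with Rbm3, Cirbp, Dbp, Arntl and Hsf1 could be named, besides the 8 genes most like Hspa1b. The members and the lists were chosen with earlier results of these data known. The fit was tested on simulated data. Left-out rats, slide and replicate blocks, other normalizations and filters were tried. With 5 arrays per group, their number limits the precision. No other column of sample values was left out.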

Additional observations from a re-analysis of the deposited data

Results flagged for a closer look

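Within each group of 5 rats, the gap of the highest or lowest rat to its neighbour was divided by the range of the group for all 17 member probes, 170 groups in all, and 12 passed Dixon's 95% value of 0.71. Chance flags about 1 in 20 groups, so this number is near what chance alone gives. Control rat 2 of D0 stood high in Hspa1b (ratio 0.751), and the dim second Hspa1b probe had a high exposed rat 1 at D28 (0.886) and a high control rat 5 at D180 (0.763). Exposed rat 5 of D90 was the lowest of its group in Hsph1 (0.727) and in Hsp90aa1 probes A_44_P299870 (0.813) and A_64_P023633 (0.712), and exposed rat 5 of D180 was lowest in the latter probe (0.774). Control rat 5 of D90 was low in Hspb1 (0.846), exposed rat 2 of D180 was low in Hspa8 probe A_64_P014723 (0.877) and high in Hspa5 (0.753), and Hspa4 had a low control rat 3 (0.766) and a low exposed rat 4 (0.714) at D28.

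The exposure effect differed between D3 and D28, by the test of the difference itself, for Hsph1 (-0.96 log2 units, SE 0.25, adjusted p = 0.0313) and for Hspa5 (-0.85, SE 0.13, adjusted p = 1.71e-05).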

How the results depend on the processing

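The D0 differences of 1.5-fold or more stayed within 1 SD of the main value under every alternative run for them, and no called difference changed its direction. As the set was chosen by the D0 difference of Hspa1b, its stability is a description of the processing and no test of that difference. With slide as a block, differences of exposed from control rats that were not called changed sign in 5 of 17 probes at D3 and 2 of 17 at D28, and changes from D28 to D90, none called, in 8 of 17 in controls and 6 of 17 in exposed rats. Hspa1b at D28 went from -0.04 to 0.18, Hsp90aa1 probe A_44_P299870 at D3 from -0.11 to 0.18, Hspa4 at D3 from -0.01 to 0.05, and Hspe1 probes A_43_P11636 at D3 from -0.05 to 0.03 and A_64_P029918 at D28 from 0.03 to -0.06. The number of member probes called moved as follows, against 0 at D3, 2 at D28, 0 at D90, 1 at D180, 2 for exposed rats from D3 to D28 and 2 for the change of the exposure effect over those days. At D28 it was 1 with 75th percentile scaling, with normexp and with the series matrix. At D90 it was 1 with the series matrix, the slide block, 1 probe per gene and the stricter filter. At D180 it was 2 with the slide block and 0 with 1 probe per gene or only that day's arrays. Without a fold limit it was 1 at D3, 4 at D28, 2 at D90, 3 at D180 and 5 in exposed rats from D3 to D28. For those exposed rats it was 0 with normexp and 1 with the slide block, and the change of effect had 4 with the slide block. Without exposed rats 4 and 5 of D3, an alternative chosen after seeing the data, the latter counts were 1 and 1.

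Leaving out 1 rat at a time gave 0 to 0 calls at D3, 1 to 2 at D28, 0 to 1 at D90, 0 to 2 at D180, 0 to 3 in exposed rats from D3 to D28 and 1 to 4 for the change of effect. The replicate block gave 2 calls at D28 and changed no count by over 1.5 times. The labels state no pairing of the replicate numbers. Of 25 same-numbered pairs, 8 correlated above 0.1 (r = -0.34 to 0.44), and in 7 the rat of the same number was the best match. These correlations also carry slide effects and cannot settle whether the rats were paired. Scaling moved the median of all probes by under 0.1 log2 units. The dim Hspa1b probe lay near background and gives no level.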
